A study of Mus musculus with 8 samples.

Results

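Blood clotting and clot removal in the vessel wall were examined through 9 genes, Plat, Plau, Plaur, F3, Tfpi, Thbd, Procr, Vwf and F13a1, in injured carotid arteries of mice with and without the microRNA miR-126. The genes were chosen for their function, and every array probe that carries one of their names was taken. This gave 13 probes of 9 genes, out of 55681 probes named for 36492 genes or transcripts. Each of Plat, Plau, Plaur, Thbd, Procr and Vwf had 1 probe, F3 and F13a1 had 2 each, and Tfpi had 3.

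Clotting in a vessel starts when tissue factor, encoded by F3, meets circulating factor VII, and it ends in thrombin, which turns fibrinogen into fibrin. The endothelium holds this in check with thrombomodulin and the endothelial protein C receptor, which turn thrombin towards activation of the anticoagulant protein C, and with tissue factor pathway inhibitor. Fibrin is cleared by plasmin, which tissue-type and urokinase-type plasminogen activators make from plasminogen, and the same protease system takes part in cell migration during growth of a neointima after injury.

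The arteries came from 4 miR-126-/- and 4 miR-126+/+ mice, and all 8 mice also lacked apolipoprotein E (ApoE-/-), so the controls carried that deletion too. Per the labels, these were females of mixed background, 6 weeks of age, fed a western-type diet, and arteries were taken 14 days after injury with a wire, which strips the endothelium. Uninjured arteries and other times were not analysed here. RNA of each mouse was read on its own single-colour Agilent array. Values below are log2 signals relative to the 75th percentile of the same array, which stands at 0. Values of different probes depend on the probes themselves and cannot be ranked against each other.

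Between 55.9% and 61.5% of probes per array were well above background, with no saturated spot, and the 75th percentile ran from 619.7 to 864.6 in intensity. All arrays lay on 1 slide. The miR-126-/- arrays filled its row 2 and the miR-126+/+ arrays its row 1, and row and genotype cannot be told apart. A dim area on the array miR-126-/- 4 held none of the 13 probes. Egfl7, the endothelial gene that hosts miR-126, gave 6.07, 6.43, 6.14 and 6.40 in the miR-126-/- mice, and 5.88, 5.53, 5.81 and 5.90 in the miR-126+/+ mice (difference 0.48 ± 0.13, SE; limma adjusted p = 0.272). No probe of miR-126 itself was used, so the deletion was not checked on these arrays. The defining smooth muscle markers of an artery, 9 of 9, were well above background on every array.

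The sequence that the miR-126-/- mice are labelled as lacking is shown first, since it defines the comparison. Its main mature strand, from RefSeq (GRCm38.p6, chromosome 2, 26591402 to 26591423, plus strand), has its seed, bases 2 to 8, in capitals.
mmu-miR-126a-3p: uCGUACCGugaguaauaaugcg
The other probes of F3 and F13a1 are shown because they measure each gene at a second place in its transcript, which allows a result of the main probe to be checked. Both are 60 bases long, written in lower case throughout, 5′ to 3′, on the gene's strand. The F3 probe lies on chromosome 3, 121434609 to 121435346 (mm9, plus strand), and this span of 738 bases means that it crosses an intron. The F13a1 probe lies on chromosome 13, 37063829 to 37063888 (mm9, minus strand), and starts at base 711 of its transcript, where the main probe starts at base 3652.
F3 probe 2: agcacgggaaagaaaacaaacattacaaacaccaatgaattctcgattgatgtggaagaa
F13a1 probe 2: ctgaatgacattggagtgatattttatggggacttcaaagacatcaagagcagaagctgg

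For none of the 9 genes did the difference between miR-126-/- and miR-126+/+ arteries pass limma's test, which sets it against the spread between mice. In whole arteries, fewer cells of a type and less RNA per cell cannot be told apart. All 13 probes were well above background on all 8 arrays, so each gene was measured in every mouse. The fitted differences ran from -0.26 for Plaur to 0.40 for F3, and 4 of the 9 genes were nominally higher and 5 lower by their main probe, which is the brightest of a gene. In limma 0 of 13 probes passed at an adjusted p under 0.05, where 0.0400% of all 32484 tested probes did (13 probes: 6 higher, 0.0185%, and 7 lower, 0.0215%). Also at an unadjusted p under 0.05 the count was 0 of 13, against 9.89% of all tested probes. The genotypes overlapped for each of the 13 probes. Over all tested probes, 6.06% had all 4 values of one genotype above those of the other. With only 13 probes, a count of 0 does not set the members apart from that share. The median difference was -0.0090 over the 9 main probes and -0.0064 over all tested probes. Leaving out any 1 array, or changing the processing in 12 other ways, left the count of member probes that passed at 0, with 0.214 as the lowest adjusted p. The labels name 4 animals per group. The p-values set each difference against the spread between these mice, which limma moderates with that of all tested probes.

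**Figure D1:**
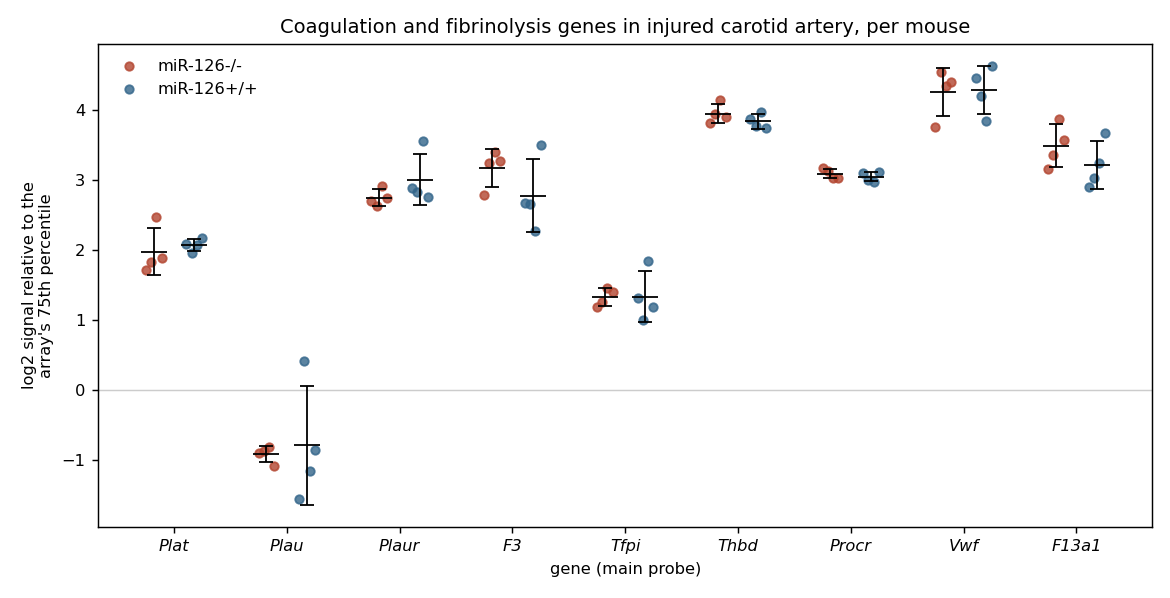
Points are single mice, miR-126-/- in red on the left and miR-126+/+ in blue on the right of each gene; the y axis is the log2 signal of the main probe relative to the array's 75th percentile, and bars are mean ± SD (n = 4 each). The genotypes overlap for all 9 genes, and Plau in miR-126+/+ arteries has the widest spread (SD 0.85); heights of different genes are not comparable.

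Among the fibrinolysis genes, Plat encodes tissue-type plasminogen activator, which endothelial cells release and which works on fibrin. Its probe lies on chromosome 8, 23892531 to 23892590 (mm9, plus strand; all probe positions are mm9, from the files). Plat gave 1.72, 1.83, 2.48 and 1.89 in the miR-126-/- mice, and 2.10, 1.96, 2.07 and 2.18 in the miR-126+/+ mice. A lone high value, that of miR-126-/- 3, lay above all miR-126+/+ values, and the other 3 lay below them. The means were 1.98 ± 0.34 in miR-126-/- arteries and 2.08 ± 0.09 in miR-126+/+ arteries (SD, n = 4 each). The difference was -0.10 ± 0.17 (SE, limma adjusted p = 0.898), with a 95% interval of 0.716-fold to 1.22-fold. It was -0.26 without miR-126-/- 3 and -0.0088 without miR-126-/- 1 (adjusted p = 0.580 and 0.993).

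Plau, the urokinase-type activator, which is bound to cells by a receptor, was the most variable member (probe on chromosome 14, 21662242 to 21662301, plus strand). It gave -0.89, -0.87, -0.81 and -1.07 in the miR-126-/- mice, and -1.56, 0.41, -1.15 and -0.85 in the miR-126+/+ mice. The miR-126-/- mice thus lay within a narrow band, and miR-126+/+ 2 and miR-126+/+ 1 were the highest and the lowest of all 8, 3.92-fold apart. The means were -0.91 ± 0.12 in miR-126-/- and -0.79 ± 0.85 in miR-126+/+ arteries (SD, n = 4 each). The difference of -0.12 ± 0.38 (SE, limma adjusted p = 0.943; 95% interval 0.501-fold to 1.68-fold) had no stable sign. It was 0.27 without miR-126+/+ 2 (adjusted p = 0.737). On miR-126+/+ 2, the summed skeletal muscle markers stood at 7.09 and the Schwann cell markers at 5.98, the highest of the 8 arrays for each (these sums are log2 of the summed scaled signals of a marker list). Their part in the Plau value was not tested. The skeletal muscle sum was nearly as high on miR-126-/- 1 (7.0), where Plau was -0.89. The next highest Schwann cell sum was that of miR-126+/+ 1 (5.76), where Plau was lowest, at -1.56.

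Plaur encodes the urokinase receptor, which leukocytes and migrating cells carry (probe on chromosome 7, 25260569 to 25260628, plus strand). It gave 2.71, 2.63, 2.92 and 2.74 in the miR-126-/- mice, and 2.89, 2.83, 3.56 and 2.76 in the miR-126+/+ mice. One sample, miR-126+/+ 3, stood above the rest, and the other 7 lay between 2.63 and 2.92. The difference of -0.26 ± 0.18 (SE, limma adjusted p = 0.710; 95% interval 0.625-fold to 1.12-fold) was the lowest among the members. It was -0.079 without miR-126+/+ 3 (adjusted p = 0.836), so most of its size came from that mouse. On miR-126+/+ 3 the neutrophil marker sum was 7.85 and the macrophage marker sum 8.31, the highest among miR-126+/+ arrays. On miR-126-/- 3 these sums were 7.80 and 8.41, and Plaur was 2.92 there, the highest of its genotype. Of the macrophage markers 5 of 12, and of the neutrophil markers 4 of 7 on the array, were nominally higher in miR-126-/- arteries, and the part of these cells in the Plaur value was not tested.

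F3 and Tfpi stand for the start of clotting and its inhibitor. The main F3 probe lies on chromosome 3, 121437717 to 121437776, plus strand. F3, the gene of tissue factor, which adventitial cells and smooth muscle carry, gave 2.79, 3.25, 3.40 and 3.28 in the miR-126-/- mice, and 2.68, 2.66, 2.28 and 3.51 in the miR-126+/+ mice. All but 1 of the miR-126+/+ values lay below all miR-126-/- values, and the exception, miR-126+/+ 4, was the highest of all. The means were 3.18 ± 0.27 in miR-126-/- and 2.78 ± 0.52 in miR-126+/+ arteries (SD, n = 4 each). The difference of 0.40 ± 0.26 (SE, limma adjusted p = 0.690; 95% interval 0.865-fold to 2.0-fold) was the highest among the members and did not pass. It was 0.64 without miR-126+/+ 4 (adjusted p = 0.214) and 0.23 without miR-126+/+ 3 (adjusted p = 0.803).

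The second F3 probe, whose sequence crosses an intron, gave -0.68, 0.04, 0.17 and 0.15 in the miR-126-/- mice, and -0.68, -0.21, -0.56 and 0.52 in the miR-126+/+ mice. It again had miR-126+/+ 4 highest, but its lowest mouse was miR-126-/- 1 and not miR-126+/+ 3. Its difference was 0.15 ± 0.30 (SE, adjusted p = 0.912), and 0.0017 without miR-126+/+ 1, 0.35 without miR-126-/- 1 and 0.40 without miR-126+/+ 4. Adipocyte markers, which perivascular fat brings in, summed to 9.05, 9.54, 9.44 and 9.86 in the miR-126-/- mice, and 8.12, 8.42, 7.97 and 9.12 in the miR-126+/+ mice. Within the miR-126+/+ mice, array 4 was highest and array 3 lowest for these markers and for the main F3 probe alike. The second F3 probe was lowest there on array 1. Within the miR-126-/- mice, array 1 was lowest for these markers and for both F3 probes. The markers were highest on array 4 (9.86) and the main F3 probe on array 3 (3.40). All 10 adipocyte markers were nominally higher in miR-126-/- arteries, and their part in the F3 values was not tested.

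Tfpi, the endothelial inhibitor of tissue factor with factor VIIa, was read by 3 probes on the minus strand of chromosome 2, which start at 84273059 (the main probe), 84281022 (probe 2) and 84284179 (probe 3). The main probe gave 1.19, 1.26, 1.46 and 1.41 in the miR-126-/- mice, and 1.33, 1.0, 1.84 and 1.19 in the miR-126+/+ mice. The miR-126-/- values fell inside the miR-126+/+ range, whose top was again miR-126+/+ 3. The difference was -0.0090 ± 0.18 (SE, limma adjusted p = 0.993; 95% interval 0.746-fold to 1.32-fold). Its sign changed with the processing, and it was 0.16 without miR-126+/+ 3. Probe 3, which the files assign to the same transcript as the main probe, gave -0.04 ± 0.16 (adjusted p = 0.956) and also had miR-126+/+ 3 highest, at 0.21 against -0.47 to -0.33 in the other miR-126+/+ mice. Probe 2 is assigned to another transcript of the gene and gave 0.14 ± 0.11 (adjusted p = 0.756). It read 0.05, 0.24, 0.16 and 0.24 in the miR-126-/- mice, and 0.12, -0.21, 0.21 and 0.01 in the miR-126+/+ mice. Here miR-126+/+ 3 lay within the range of the miR-126-/- mice.

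**Figure D2:**
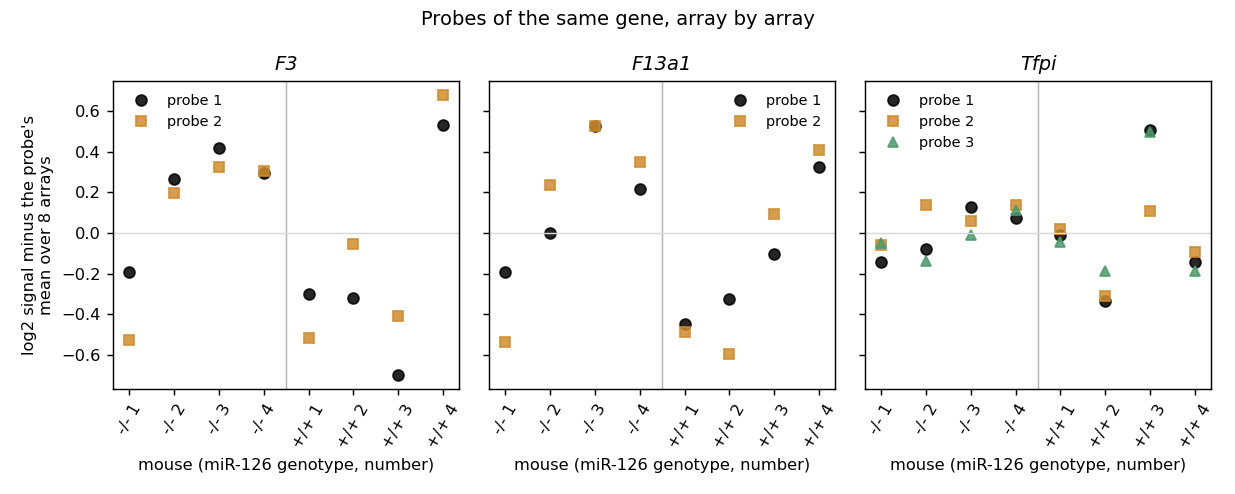
The 3 panels show F3, F13a1 and Tfpi; each symbol is a probe and each x position a mouse, miR-126-/- on the left and miR-126+/+ on the right, and the y axis is the log2 signal minus that probe's mean over the 8 arrays. Both F3 probes are highest in miR-126+/+ 4, both F13a1 probes are highest in miR-126-/- 3, and Tfpi probes 1 and 3 are highest in miR-126+/+ 3, whereas Tfpi probe 2 is highest in miR-126-/- 4.

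Thbd and Procr, the anticoagulant receptors of the endothelial surface, were the steadiest members. Both probes lie on chromosome 2, that of Thbd at 148230235 to 148230294 (minus strand) and that of Procr at 155580945 to 155581004 (plus strand). Thbd, the gene of thrombomodulin, gave 3.83, 3.94, 4.14 and 3.90 in the miR-126-/- mice, and 3.88, 3.77, 3.98 and 3.75 in the miR-126+/+ mice. The genotypes overlapped, with miR-126-/- 3 highest and miR-126+/+ 4 lowest. The difference was 0.11 ± 0.10 (SE, limma adjusted p = 0.783), with a 95% interval of 0.917-fold to 1.27-fold. It was 0.046 without miR-126-/- 3 (adjusted p = 0.941).

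Procr, the gene of the endothelial protein C receptor, gave 3.17, 3.13, 3.04 and 3.04 in the miR-126-/- mice, and 3.1, 3.01, 2.98 and 3.12 in the miR-126+/+ mice. Its highest and lowest mice were 1.14-fold apart. The difference was 0.04 ± 0.08 (SE, limma adjusted p = 0.908), and its 95% interval of 0.904-fold to 1.17-fold was the narrowest among the members. The SD within a genotype was 0.069 for Procr, and 2.30% of all tested probes had a smaller one. For Thbd the SD was 0.12 (16.0% of probes smaller), and for Plau 0.61 (89.6% smaller).

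Vwf encodes von Willebrand factor, which endothelial cells and platelets store and which tethers platelets to an injured wall (probe on chromosome 6, 125636551 to 125636610, plus strand). It gave 3.76, 4.54, 4.35 and 4.41 in the miR-126-/- mice, and 4.46, 4.21, 3.84 and 4.63 in the miR-126+/+ mice. Each genotype had a low mouse, miR-126-/- 1 and miR-126+/+ 3, and the other values ran from 4.21 to 4.63. The means were 4.26 ± 0.35 in miR-126-/- and 4.29 ± 0.34 in miR-126+/+ arteries (SD, n = 4 each). The difference of -0.02 ± 0.22 (SE, limma adjusted p = 0.983; 95% interval 0.689-fold to 1.40-fold) was 0.14 without miR-126-/- 1 and -0.17 without miR-126+/+ 3, so it had no stable sign.

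F13a1 encodes the A subunit of factor XIII, the transglutaminase that cross-links fibrin, which macrophages and platelets make (main probe on chromosome 13, 36959214 to 36959273, minus strand). It gave 3.17, 3.36, 3.88 and 3.57 in the miR-126-/- mice, and 2.91, 3.03, 3.25 and 3.68 in the miR-126+/+ mice. The highest miR-126-/- mouse and the lowest miR-126+/+ mouse were the extremes, but miR-126+/+ 4 lay above 3 of the 4 miR-126-/- mice. The means were 3.49 ± 0.31 in miR-126-/- and 3.22 ± 0.34 in miR-126+/+ arteries (SD, n = 4 each). The difference was 0.28 ± 0.21 (SE, limma adjusted p = 0.740; 95% interval 0.865-fold to 1.69-fold). It was 0.43 without miR-126+/+ 4 and 0.15 without miR-126-/- 3. The second probe, shown above, gave 0.29 ± 0.30 (SE, adjusted p = 0.802). Its signal was low, between 35.7 and 85.2 intensity units, and the scanner software's own error there was 11.4% to 20.5% of the signal. The macrophage marker sum was highest on miR-126-/- 3, at 8.41, where F13a1 was highest too, and its range was 7.81 to 8.41 in miR-126-/- and 7.98 to 8.31 in miR-126+/+ arteries. Among miR-126+/+ arrays the sum was highest on array 3 (8.31), where F13a1 was 3.25. F13a1 was highest there on array 4, at 3.68, where the sum was 8.04. The part of macrophages in the F13a1 values was not tested.

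**Figure D3:**
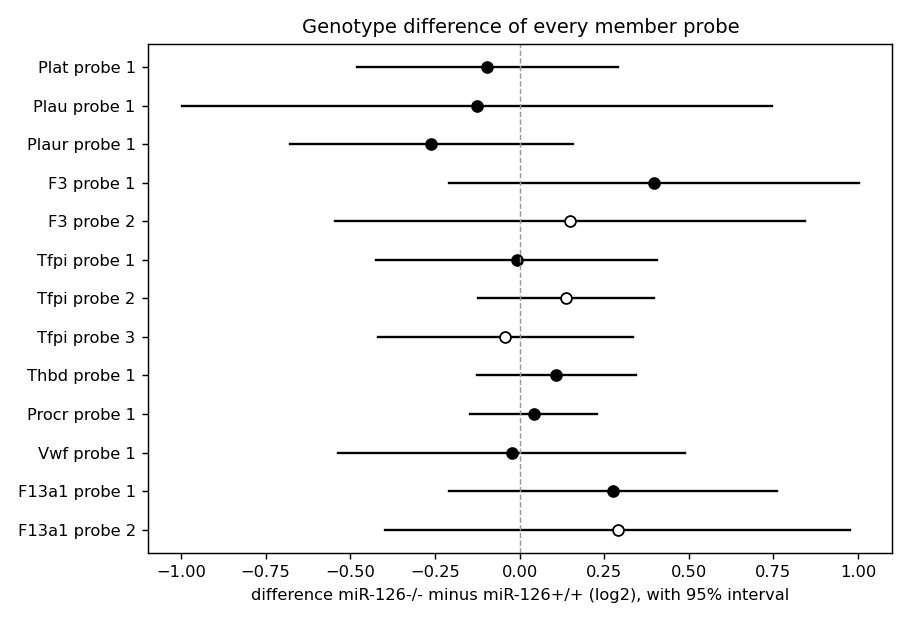
Each row is a probe, and the x axis is the difference miR-126-/- minus miR-126+/+ on the log2 scale with its 95% interval from limma (n = 4 each); filled points are main probes and open points further probes. All 13 intervals include 0, and they are narrowest for Procr and widest for Plau.

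Markers of the cells that make these proteins were read on the same arrays. Endothelial markers, all 12 well above background on every array, summed to 7.16 to 7.54 in miR-126-/- arteries and 6.76 to 7.07 in miR-126+/+ arteries, without overlap. The sum adds linear signals, and Egfl7, the host gene of miR-126, was the brightest of these markers and weighed most in it. Taken singly, Egfl7 and Tie1 did not overlap between genotypes, and the other endothelial markers did. All 12 were nominally higher in miR-126-/- arteries, with the lowest adjusted p at 0.272. The endothelial products Vwf, Thbd, Procr and Tfpi overlapped between genotypes, as above. Of the mice low in Vwf, miR-126-/- 1 had the lowest endothelial sum of its genotype, 7.16, whereas miR-126+/+ 3 had 6.90 and miR-126+/+ 2 the lowest, 6.76. Platelet and megakaryocyte markers summed to 5.07 to 5.81 in miR-126-/- and 5.36 to 5.70 in miR-126+/+ arteries. Most of this sum was Pf4, which gave 4.95 to 5.73 in miR-126-/- and 5.26 to 5.64 in miR-126+/+ arteries. Of the 10 platelet and megakaryocyte markers, 7 were well above background on all arrays, Gp5 on 0 and Gp1ba and Gp6 on 2 arrays each. Smooth muscle markers summed to 8.26 to 8.94 in miR-126-/- and 8.35 to 8.59 in miR-126+/+ arteries, and fibroblast markers to 9.76 to 9.94 in miR-126-/- and 9.84 to 10.3 in miR-126+/+ arteries. The platelet sum was lowest on miR-126-/- 1, as Vwf was. On miR-126+/+ 3, the other mouse low in Vwf, it was 5.70, the highest among miR-126+/+ arrays. The part of platelets in the Vwf values was not tested.

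**Figure D4:**
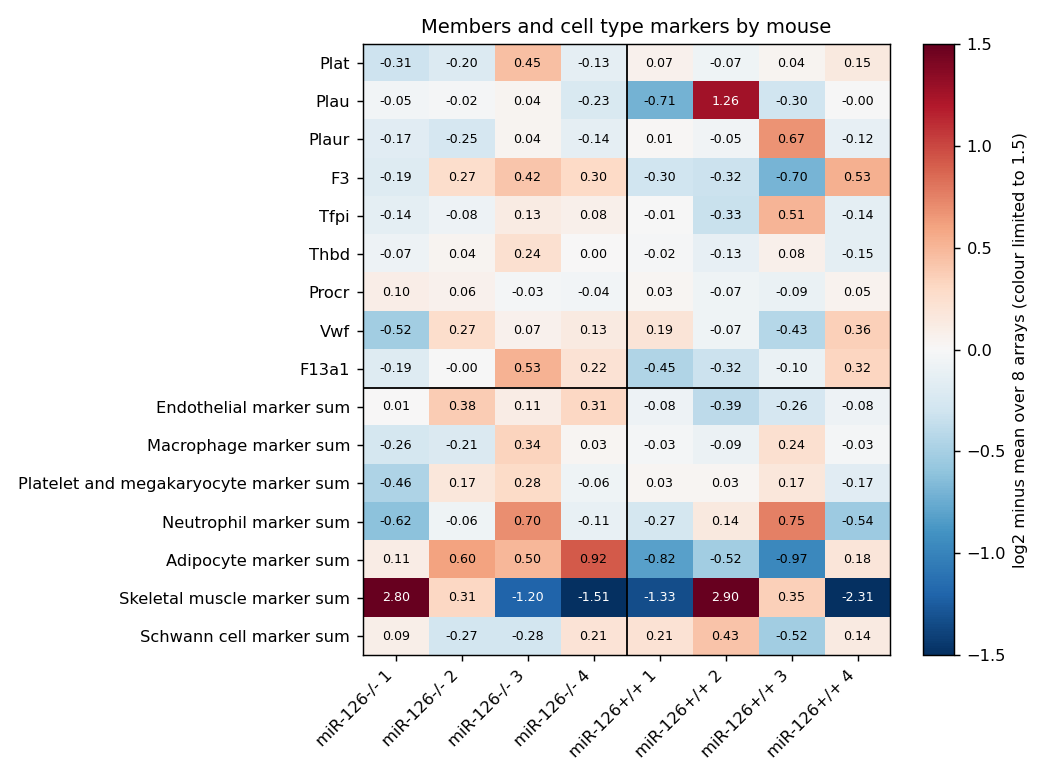
Rows are the 9 genes (main probe) and, under the line, the log2 summed signal of 7 cell type marker lists; columns are mice, miR-126-/- on the left; colours and numbers are log2 values minus the row's mean over the 8 arrays, with colours limited to 1.5. Plau stands at 1.26 in miR-126+/+ 2 and Plaur at 0.67 in miR-126+/+ 3, while Procr stays within 0.10 of its mean in every mouse.

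Other genes of coagulation and fibrinolysis were followed as a list of 46, of which 33 had a probe well above background on at least 3 arrays of a genotype. The 13 that did not include the liver products Plg, F2, F11, F12, F13b, Fga, Fgb and Fgg, which encode plasminogen, prothrombin, further clotting factors and the chains of fibrinogen. Of the 33, 0 passed over all probes in limma, where 0.0400% of all tested probes did, and 5 (F2rl3, F8, Serpina10, Tfpi2 and the F10 probe) had an unadjusted p under 0.05, where 9.89% of all tested probes did. Serpina10 and F2rl2 met the background filter through the miR-126-/- arrays alone, so their place in these counts depends on the genotype in which they were higher. For 3 genes, F2rl3, F8 and S100a10, the genotypes did not overlap, as for 6.06% of all tested probes. The median difference was -0.03 over the list. By role, 2 of 9 genes of the plasminogen system were nominally higher, as were 2 of 7 coagulation factors and 3 of 3 thrombin receptors. The same held for 5 of 9 genes grouped with the anticoagulants and 2 of 5 genes of processing and secretion. The anticoagulant group was drawn broadly and also held Thbs1 and Gas6, both among its 5 higher genes. Over all tested probes, 15790 of 32484 were nominally higher, and with so few genes these counts do not set a role apart.

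S100a10, whose product holds plasminogen at the cell surface together with that of Anxa2, was 4.51, 4.62, 4.54 and 4.57 in the miR-126-/- mice, and 4.75, 4.70, 4.75 and 4.62 in the miR-126+/+ mice. The genotypes lay next to each other without overlap, and the difference of -0.15 ± 0.08 (SE, limma adjusted p = 0.601) did not pass.

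F2rl3, the gene of the thrombin receptor PAR4, came closest to the threshold in the list. It gave -2.60, -2.73, -2.79 and -2.70 in the miR-126-/- mice, and -3.88, -4.33, -3.65 and -3.58 in the miR-126+/+ mice. All miR-126-/- mice lay above all miR-126+/+ mice, and the difference was 1.16 ± 0.17 (SE, limma adjusted p = 0.0800; 0.0395 to 0.254 over its alternatives). It passed only with array weights (adjusted p = 0.0395), and normexp background correction, whose offset of 50 on every spot shrinks log differences most at low signal, gave 0.64 (adjusted p = 0.0946). A second F2rl3 probe gave 1.01 ± 0.17 (SE, adjusted p = 0.121), again without overlap, and was well above background on 4 miR-126-/- and 3 miR-126+/+ arrays.

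F8, the gene of factor VIII, an endothelial product that Vwf protects in plasma, gave -3.24, -2.38, -3.05 and -2.76 in the miR-126-/- mice, and -4.16, -4.52, -3.75 and -3.37 in the miR-126+/+ mice. The difference of 1.09 ± 0.28 (SE, limma adjusted p = 0.258) did not pass, although the genotypes did not overlap; endothelial markers were nominally higher too, and their part was not tested. With normexp the F8 difference was 0.56 (adjusted p = 0.279). Serpina10, an inhibitor of factor Xa, gave 0.85 ± 0.28 (adjusted p = 0.365) and was well above background on all 4 miR-126-/- but only 2 miR-126+/+ arrays; with normexp it gave 0.26 (adjusted p = 0.606). Tfpi2, a relative of Tfpi, gave -0.44 ± 0.18 (adjusted p = 0.477), and -0.28 with normexp (adjusted p = 0.548). The main F10 probe gave -1.05 ± 0.45 (adjusted p = 0.493), but the files also assign it to Glrx2, so it does not measure factor X alone. The other F10 probe gave -0.29 ± 0.22 (adjusted p = 0.735).

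**Figure D5:**
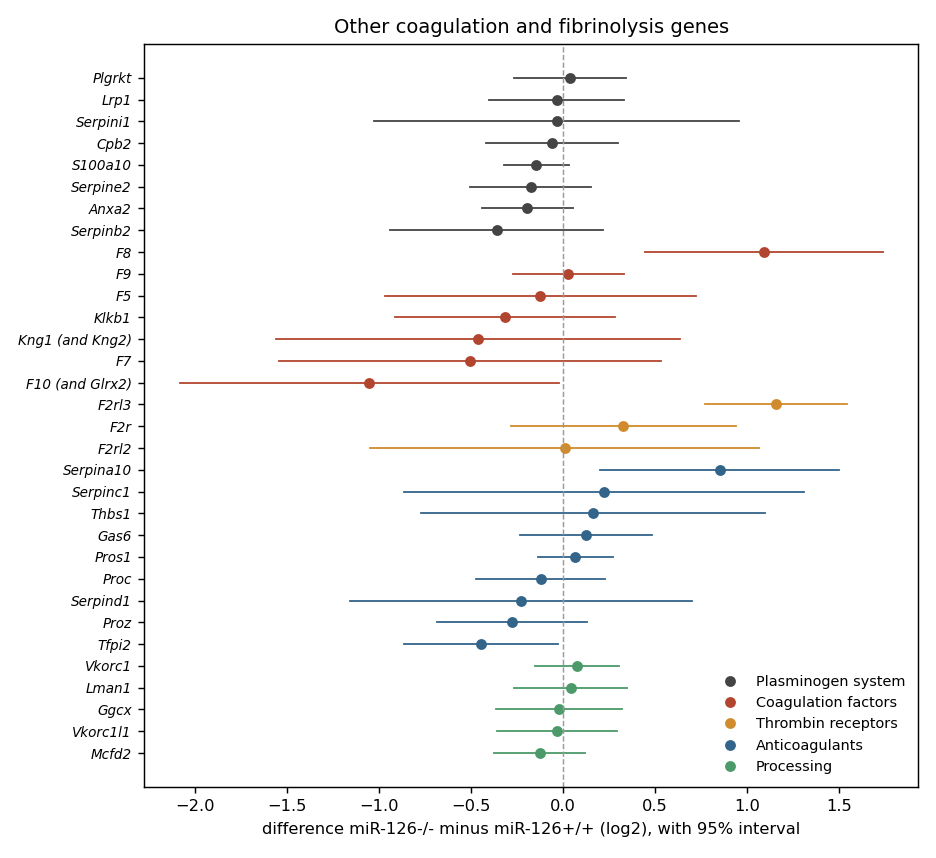
Rows are tested genes of the wider list (1 of the 33 is not shown), grouped by role from the plasminogen system at the top to processing at the bottom; the x axis is the difference miR-126-/- minus miR-126+/+ on the log2 scale with its 95% interval from limma (n = 4 each). F2rl3 and F8 lie farthest to the right, at 1.16 and 1.09, and the F10 probe, shared with Glrx2, farthest to the left at -1.05.

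For the 3 members that varied most over the 8 arrays, the genes with the most similar profile were looked up by the root mean square difference of values centred over the 8 arrays, a measure in log2 units that is smaller for more similar profiles. Plau came closest to Myo6, an actin motor gene, at 0.21, then to the odorant receptor gene Olfr1509 (0.27), and all of these were highest in miR-126+/+ 2; the SD of Plau over the 8 arrays was 0.57. F3 came closest to the glutathione transferase gene Gstm1 (0.10) and to Map7d3 (0.11), and F13a1 to Rmdn1 (0.099) and Tmem69 (0.11). Gstm1 gave 4.04, 4.38, 4.32 and 4.44 in the miR-126-/- mice, and 3.78, 3.79, 3.42 and 4.47 in the miR-126+/+ mice, so that it had the same highest and lowest mouse as F3. These profiles were picked from all genes for their likeness, and nothing about shared control was tested.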

How the data were processed

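Agilent Feature Extraction 10.7.3.1 produced the scanner files, with probes placed on mm9, per the file headers. Its processed signal is a linear intensity, background-subtracted and spatially detrended, and the table of values that the authors deposited separately carries these intensity values too (log2 difference at the median 0 on each array). Per the labels' protocols, 100 ng of total RNA was labelled with Cy3.

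Controls and outlier spots, 146 to 216 on an array, were dropped before averaging the spots of each probe. Log2 signals were scaled by each array's 75th percentile over noncontrol spots. A probe entered when well above background on at least 3 of 4 arrays of a genotype, and 32484 did. Each probe was a row of limma 3.58.1 (R 4.3.3; lmFit and eBayes on genotype alone, leaving 6 residual degrees of freedom) with Benjamini-Hochberg adjustment over all 32484; intervals are limma's, unadjusted. Python 3.11.15, pandas 2.3.3, numpy 2.4.6 and matplotlib 3.10.9 did the rest. The fit was also run on simulated data, with independent noise for each probe and added changes larger than any member difference. That run therefore does not show how the fit handles differences as small as those of the members.

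Genes named are all members, those of the wider list that pass or are among the 3 with the smallest p in each direction, and the closest 2 profiles of the 3 most variable members; a gene of the wider list is given by its brightest tested probe. One gene of the wider list is counted there but not reported here. Members, lists and tests were chosen with earlier results of these data known. Alternatives were other background correction, normalization, filters, probe summaries, variance models, the replicate number as a block, the dim area left out, and each array left out. Replicate numbers come from the titles, and the labels do not say that they link mice. They equal the array's column on the slide. Same-numbered arrays correlated at -0.29 to 0.18 in their deviations, but with 4 arrays a genotype this cannot settle whether mice were paired.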

Additional observations from a re-analysis of the deposited data

Results flagged for a closer look

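Among 26 groups of 4 values (13 probes in each genotype), 2 held a mouse far from the other 3 by Dixon's criterion, which chance meets in about 1 of 20 groups. For Plaur, miR-126+/+ 3 read 3.56, and the next highest miR-126+/+ mouse read 2.89. For the second F3 probe, miR-126-/- 1 read -0.68, and the next lowest miR-126-/- mouse read 0.04; the main F3 probe was also lowest there within miR-126-/-, at 2.79 against 3.25 in the next mouse.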

How the results depend on the processing

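No member probe passed under any of the 20 alternatives. Other filters, the brightest probe, the intensity trend, the replicate block and the left-out dim area could not change a member probe's difference or its sign. The mean of a gene's probes could not do so for genes with 1 probe. With these unchanged values counted in, 238 of 252 differences of member probes kept their sign. The other 14 changed sign, 6 of them with all arrays kept: Plau gave 0.0025 with array weights; Tfpi probe 1 gave 0.012 with normexp, 0.0035 with the deposited table, 0.029 with the mean of its probes and 0.037 with array weights; and Tfpi probe 3 gave 0.0020 with array weights. The rest changed sign when 1 array was left out, which gave -0.38 to 0.27 for Plau, -0.12 to 0.16 for Tfpi probe 1, -0.11 to 0.12 for Tfpi probe 3 and -0.17 to 0.14 for Vwf. The cause was not tested. Of the wider list, 1 gene (F2rl3) passed with array weights and 0 in the other alternatives. Over all probes, where 13 passed, the count was 39 with normexp, 7 for probes above background on all arrays, 27 with the brightest probe of each gene, 8 with an intensity trend and 63 with array weights. With the replicate number as a block it was 0 in limma (2883 at an unadjusted p under 0.05). Without 1 array it ran from 0 to 52. It was 0 in limma when miR-126-/- 2 was left out (2514 with an unadjusted p under 0.05), 2 for miR-126-/- 1, 3 for miR-126-/- 3, 7 for miR-126+/+ 1, 3 for miR-126+/+ 2 and 52 for miR-126+/+ 4. A slide block was not run, since there was 1 slide. With 4 mice a group, the 95% intervals of the main probes reached upwards to 2.0-fold for F3 and downwards to 0.501-fold for Plau. The narrowest, that of Procr, ran from 0.904-fold to 1.17-fold.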

Other observations

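Thbs1, the gene of thrombospondin 1, and F5, the gene of factor V, were picked from the wider list after their values were seen. On miR-126+/+ 3, the mouse with the highest Plaur, Thbs1 read 4.65, against 2.71 to 2.98 in the other miR-126+/+ mice and 3.35 to 3.53 in miR-126-/- arteries. F5 read -0.03 there, against -1.74 to -1.62 in the other miR-126+/+ mice, and a second F5 probe had its highest value, -1.68, on the same array. Neither gene differed between genotypes in limma (adjusted p = 0.931 for Thbs1 and 0.942 for F5).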
